A study of Mus musculus and Rattus norvegicus with 2 samples.

Results

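Fragments of messenger RNAs made by the epididymal epithelium were counted in a small RNA library of mouse sperm. The genes were Gpx3, Gpx5, Clu, Adam7, Crisp1, Lcn5 and Cd52, 7 genes of the lining of the epididymis. A read was taken where the authors had labelled its sequence as mRNA and where it matched, in full and without mismatch, the sense strand of a spliced transcript of 1 of these genes and of no other gene. By this rule 320 reads of 277 distinct sequences belonged to the 7 genes, of 62294 mRNA-labelled reads of 32174 distinct sequences and of 691381 listed reads of all kinds. The members' share was 0.514% of the mRNA-labelled reads (exact Clopper-Pearson 95% interval 0.459 to 0.573) and 0.0463% of all listed reads. Of the mRNA-labelled reads, 23148 matched a transcript exactly in sense and 19549 matched 1 gene, and the members made up 1.64% of these 19549 (1.46 to 1.82).

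The study compared small RNAs of purified sperm from the cauda epididymis, the last segment of the duct, in the mouse and the rat. Mouse sperm were those of C57BL/6 animals aged 2 months, with normal growth and no agent named in the labels, and rat sperm those of Sprague Dawley young adults of 450 g. RNA of 18 to 45 nt, taken from total RNA extracted with Trizol, was sequenced on an Illumina GAIIx. With 1 library per species, from a number of animals that the labels do not state, neither a test nor a replicate error was possible for any value below. The Poisson and Clopper-Pearson intervals are exact, at 95%, and stand for counting error alone, because copies made by PCR are not independent molecules.

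Sperm leave the testis immature and pass along the caput, corpus and cauda of the epididymis, whose epithelium secretes a different set of proteins into the lumen in each segment. Spermatozoa transcribe little or nothing themselves, while the epithelium makes large amounts of mRNA for secreted and membrane-bound proteins and also sheds vesicles that meet the sperm. Gpx5, an epididymal glutathione peroxidase that lacks selenocysteine, Adam7, a membrane protein of the metalloprotease-disintegrin family, and Lcn5, a lipocalin that binds retinoic acid, are typical of the caput. Crisp1, a cysteine-rich secretory protein that coats sperm, and Cd52, a small glycoprotein on a lipid anchor that is handed over to the sperm surface, are typical of the corpus and cauda. Clu, the secreted chaperone clusterin, and Gpx3, a secreted selenium-dependent glutathione peroxidase, are made in several segments, and Clu also in the Sertoli cells of the testis.

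Examples of the fragments are given first, in lower case, 5′ to 3′ on the strand of the gene, with positions on the transcript counted from 1 at its 5′ end and genome positions in GRCm38 from the GENCODE annotation. For Gpx3 and Gpx5 they are the 30 nt at the centre of the deepest pile of reads, which lay in the 3′ UTR of both genes, and for Gpx3 also a read of the 5′ UTR and a second read of the 3′ UTR. For the other genes, and for the coding sequence of Gpx5, they are the most abundant single read sequence. The one shown for Adam7 and the one for Cd52 are each 1 of 4 sequences with the same number of reads.
Gpx3, 3′ UTR, nt 1012 to 1041, chr11:54909795-54909824, plus strand: ggcacaactgtgtgtctgaaccactgtgga
Gpx3, 5′ UTR, nt 155 to 173, chr11:54902926-54902944, plus strand: agacggacggtggccaccc
Gpx3, 3′ UTR, nt 1286 to 1312, chr11:54910069-54910095, plus strand: ttccttcctgaaggaccctcctgagcc
Gpx5, 3′ UTR, nt 1060 to 1089, chr13:21287014-21287043, minus strand: cagcgacaggaggaacatgaatggcaggcc
Gpx5, coding sequence, nt 172 to 214, chr13:21291412-21291454, minus strand: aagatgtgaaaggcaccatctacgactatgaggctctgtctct
Clu, coding sequence, nt 495 to 523, chr14:65974861-65974889, plus strand: agggattctgaaatgaagctgaaggcatt
Adam7, coding sequence, nt 1690 to 1728, chr14:68509795-68509833, minus strand: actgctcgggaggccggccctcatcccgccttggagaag
Crisp1, 3′ UTR, nt 800 to 825, chr17:40294349-40294374, minus strand: actcgtagccaggaccatgtagagaa
Lcn5, 5′ UTR, nt 4 to 27, chr2:25657955-25657978, plus strand: atggcttctggtggggagctgaac
Cd52, coding sequence, nt 203 to 230, chr4:134093820-134093847, minus strand: aaacagcacctccaccaaaaaaaccccc
The Gpx3 reads of nt 155 to 173 and of nt 1286 to 1312 and the Clu read had 3 copies each, and the single reads shown for Gpx5, Adam7, Crisp1, Lcn5 and Cd52 had 2 copies each.

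No sequence dominated any of the 7 genes. Of the 277 member sequences, 240 were seen as 1 read, and the most abundant had 3 reads. A further Gpx3 sequence had a date in place of its count and was left out. Its month, read as the count, gives 7 reads. The 320 reads began at 240 different transcript positions and covered 3820 of the 11137 nt of the 7 transcripts, or 34.3%. The count of a gene therefore did not rest on many copies of 1 sequence, although many of the sequences overlapped, as described for each gene below.

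All 7 genes had at least 10 reads. Gpx3 had 110 reads of 88 sequences (Poisson interval of the reads 90.4 to 133), which was 34.4% of the member reads, and 9 genes of the library had more. Clu had 69 reads of 62 sequences (53.7 to 87.3), and Gpx5 had 48 reads of 44 sequences (35.4 to 63.6). Adam7 had 30 reads of 26 sequences (20.2 to 42.8), Cd52 had 29 reads of 25 sequences (19.4 to 41.6), Crisp1 had 24 reads of 23 sequences (15.4 to 35.7), and Lcn5 had 10 reads of 9 sequences (4.80 to 18.4). For comparison, 6203 genes had at least 1 mRNA-labelled read matching that gene alone, their median was 1 read, and 250 had 10 or more. The genes with more reads than a member numbered 16 for Clu, 24 for Gpx5, 43 for Adam7, 46 for Cd52, 59 for Crisp1 and 212 for Lcn5. Members were chosen with earlier results of these data known, so these ranks are a description.

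Levels of the genes were compared per length of the reference transcript, the annotated transcript that held most of the gene's reads. Gpx3 was highest at 69.0 reads per kb (interval 56.7 to 83.2), followed by Cd52, whose transcript has 514 nt, at 56.4 (37.8 to 81.0). Clu had 38.1 reads per kb (29.7 to 48.2), Gpx5 28.7 (21.1 to 38.0) and Crisp1 16.9 (10.9 to 25.2). Lcn5 had 15.2 reads per kb (7.27 to 27.9), and Adam7, whose transcript of 3469 nt is the longest, had 8.65 (5.83 to 12.3). The intervals of each pair of neighbours in this order overlapped, and those of Gpx3 and Clu did not, nor did those of Cd52 and Crisp1. In a bulk library, more cells of a type and more RNA per cell cannot be told apart.

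**Figure D1:**
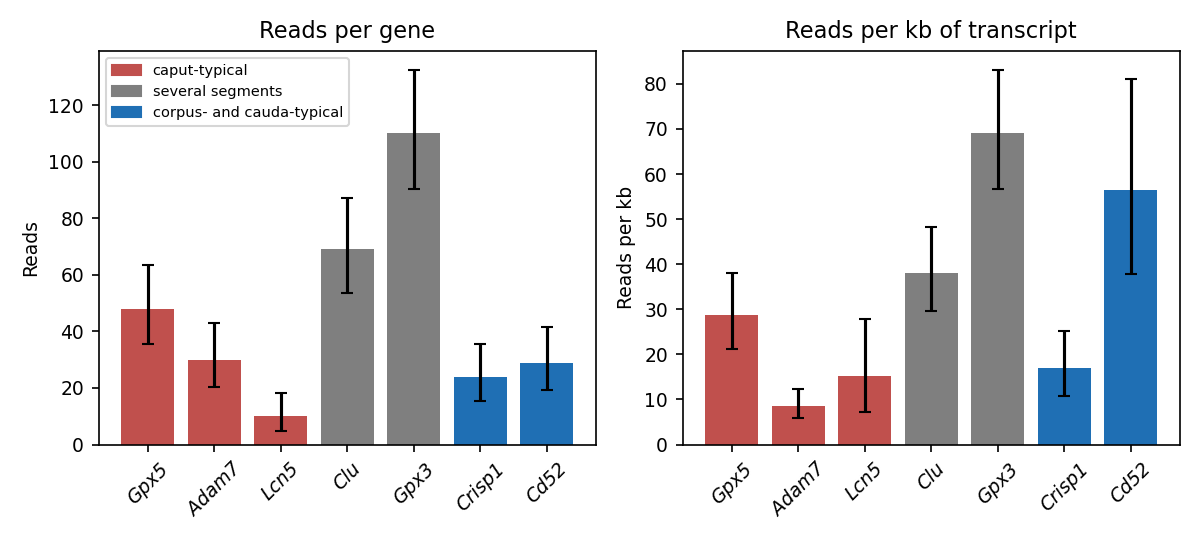
Reads (left) and reads per kb of the reference transcript (right) of the 7 genes in the mouse sperm library, with exact Poisson 95% intervals as error bars; colours mark caput-typical genes, genes made in several segments, and corpus- and cauda-typical genes. Gpx3 is highest on both scales, with 110 reads and 69.0 reads per kb, and Cd52 stands second per kb with 29 reads.

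Caput-typical genes and genes typical of the corpus and cauda were both present in sperm taken from the cauda. The caput-typical Gpx5, Adam7 and Lcn5 had 88 reads of 79 sequences, and the corpus- and cauda-typical Crisp1 and Cd52 had 53 reads of 48 sequences. The caput-typical share of these reads was 62.4% (interval 53.9 to 70.4). Per length the order of the summed levels turned. Levels per gene summed to 52.5 reads per kb for the 3 caput-typical genes and to 73.4 for the 2 corpus- and cauda-typical genes. Their transcripts had 5803 and 1930 nt. The caput-typical share of these sums was 41.7%, without an interval. Cd52 alone, with 29 reads, gave 56.4 of the 73.4. Crisp1 at 16.9 stood below the caput-typical Gpx5 at 28.7 and above Lcn5 and Adam7. The per-kb scale was chosen after seeing the data. Median read lengths were 36 nt for the caput-typical and 35 nt for the corpus- and cauda-typical genes.

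The reads were placed along each transcript and assigned to a region by their midpoint. Over the 7 genes 22 reads lay in 5′ UTRs, 171 in coding sequence and 127 in 3′ UTRs. The coding share was 53.4% (interval 47.8 to 59.0) where coding sequence made up 59.3% of the length, and the 3′ UTR share was 39.7% (34.3 to 45.3) of the reads and 34.5% of the length. Without Gpx3 the coding share was 59.5%, where coding sequence made up 62.1% of the length. Pooled over the 7 genes, the coding share of length lay just above the interval of the coding share of reads, and that of the 3′ UTRs lay within its interval. The pooled length weights a gene by its nt and the pooled reads weight it by its reads. The pooled values therefore do not separate the mix of genes from the place of reads within a gene. Within each of the 7 genes, the coding share of length lay within the interval of that gene's coding share of reads.

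Gpx3, on chromosome 11 (transcript Gpx3-201, chr11:54902772-54910377, 5 exons, coding nt 195 to 875 of 1594), had 10 reads in the 5′ UTR, 46 in the coding sequence and 54 in the 3′ UTR. A single stretch of 50 nt in the 3′ UTR, nt 1000 to 1049, held 38 of the 110 reads, or 34.5% (interval 25.7 to 44.2). These 38 reads were of 27 different sequences of 34 to 50 nt with 12 different starts and 11 different ends, and 34 of them held the whole 30-nt sequence shown above. The most used start, nt 1001, had 7 reads, and the most used end, nt 1049, had 11. The pile was made of long overlapping reads with staggered ends. One further sequence of 40 nt, nt 1006 to 1045, stands in the deposited table with a date in place of its count, and the depth would be 45 with its month read as 7 reads.

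Most other Gpx3 reads also lay in short separate stretches. Stretches in which at least 5 reads overlapped numbered 6 of the 15 covered ones and held 92 of the 110 reads, or 83.6%. Besides the pile in the 3′ UTR they were nt 155 to 194 with 10 reads, nt 250 to 283 with 6, nt 490 to 550 with 14, nt 644 to 700 with 14 and nt 1282 to 1321 with 10. The codon for selenocysteine, the selenium-bearing residue of the active site, begins at nt 411, and 0 reads lay over it, which allows up to 3 reads at this depth.

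The 10 reads of the Gpx3 5′ UTR all began at the same base, nt 155, at chr11:54902926. They were of 5 sequences of 18 to 40 nt that differed in their 3′ ends, and the read of 19 nt shown above was 1 of these. That base is the annotated 5′ end of another transcript of the gene, Gpx3-203, and no Gpx3 read began upstream of it. Lcn5 was the other gene with reads at an annotated 5′ end: the 2 reads of the sequence shown above began at chr2:25657955, the start of Lcn5-201 and Lcn5-203. Of the 22 annotated transcripts of the 7 genes, these 3 had a read at their first base.

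Gpx5, on chromosome 13 (Gpx5-201, chr13:21286429-21292731, 5 exons, coding nt 72 to 737 of 1674), had 0 reads in the 5′ UTR, 16 in the coding sequence and 32 in the 3′ UTR. The 3′ UTR share was 66.7% (interval 51.6 to 79.6), with 56.0% of the length there. Its deepest pile, nt 1048 to 1098, also lay in the 3′ UTR and held 14 of the 48 reads, or 29.2% (16.95 to 44.1), of 12 sequences with 9 starts and 7 ends. It had fewer reads than the pile of Gpx3 and was likewise made of different overlapping sequences, of 25 to 42 nt. The deepest stretch of the coding sequence, nt 172 to 226, had 6 reads, and the 43-nt sequence shown above lay in it.

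Clu, on chromosome 14 (Clu-201, chr14:65968483-65981547, 9 exons, coding nt 234 to 1580 of 1810), had similar numbers of reads in 3 equal parts of the transcript: 22 in the first, 25 in the middle and 22 in the last. Its 5′ UTR held 3 reads, the coding sequence 56 and the 3′ UTR 10, and 81.2% of the reads (interval 69.9 to 89.6) were coding, with 74.4% of the length. The greatest depth was 7 reads, reached in 2 places of the coding sequence, nt 495 to 519 and nt 694 to 704. The reads covered 56.8% of the transcript.

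Adam7, on chromosome 14 (Adam7-201, chr14:68497336-68533689, 23 exons, coding nt 15 to 2384 of 3469), had no read in the first of 3 equal parts, 18 in the middle one and 12 in the last. Its first read began at nt 1175. The deepest pile, 7 reads at nt 2814 to 2880, lay in the 3′ UTR. By region 18 reads were coding and 12 were in the 3′ UTR, and 14.5% of the transcript was covered, the lowest share of the 7 genes.

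Crisp1, on chromosome 17 (Crisp1-201, chr17:40293758-40319207, 8 exons, coding nt 56 to 790 of 1416), had its reads at the other end: 13 lay in the first of 3 equal parts, 11 in the middle one and 0 in the last. Its 5′ UTR held 3 reads, starting at nt 13, 14 and 18, its coding sequence 16, and its 3′ UTR 5. These 5 lay at nt 798 to 835, just after the stop codon. The 3′ UTR share was 20.8% (interval 7.13 to 42.2), with 44.2% of the length there. The last part of the Crisp1 transcript had 29.4% G and C, and the first part of Adam7 40.7%. The last part of Adam7, with 12 reads, had 41.1%. The role of base composition in these empty parts was not tested.

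Lcn5, on chromosome 2 (Lcn5-202, chr2:25657952-25661501, 6 exons, coding nt 30 to 608 of 660), had 3 reads in the 5′ UTR, 6 in the coding sequence and 1 in the 3′ UTR. Its greatest depth was 3 reads, at nt 11 to 27. Cd52, on chromosome 4 (Cd52-201, chr4:134093536-134095082, 2 exons, coding nt 99 to 323 of 514), had 3, 13 and 13 reads in these regions. A stretch of 81 nt of the Cd52 coding sequence, nt 152 to 232, held 12 of its 29 reads, and the 3′ UTR had 8 reads at nt 341 to 410 and 5 at nt 433 to 491. These 3 stretches held 86.2% of the Cd52 reads, and 57.6% of the transcript was covered.

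**Figure D2:**
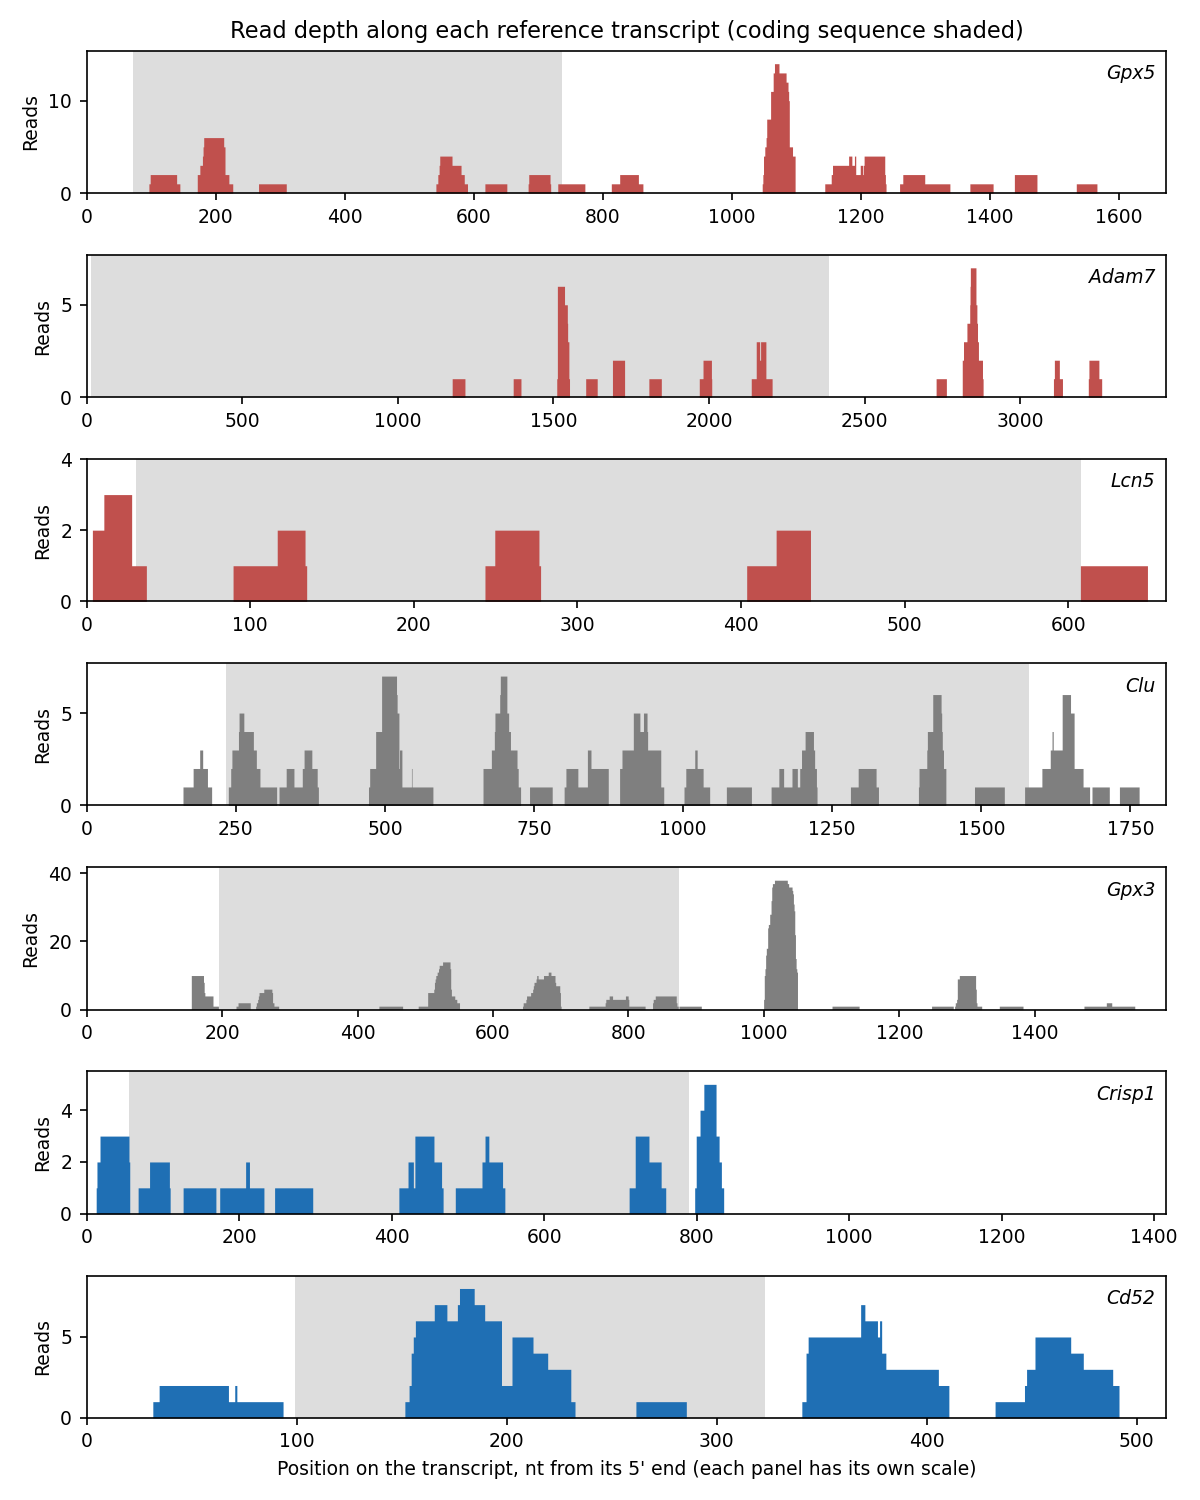
Number of reads over each position of the 7 reference transcripts in the mouse sperm library, in nt from the 5′ end, with the coding sequence shaded and a scale of its own in each panel. Gpx3 reaches 38 reads and Gpx5 14 reads in the 3′ UTR, Adam7 has none before nt 1175, and Crisp1 has none in the last of 3 equal parts.

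The member reads were richer in G and C than the transcripts they came from. G and C made up 56.6% of the bases of the member reads and 47.3% of the 7 transcripts. The transcript value weights a gene by its length and the read value weights it by its reads, so the pooled gap also holds the mix of genes. Within single genes an excess was present in each of the 7. It ran from 3.23 percentage points for Clu (58.9% in the reads and 55.6% in the transcript) to 10.3 points for Adam7 (52.9% in the reads and 42.6% in the transcript). Crisp1 had 45.6% in the reads and 36.7% in the transcript. An excess was also present outside the members, where genes of spermatids, pooled in the same way, had 57.8% in the reads and 52.1% in the transcripts. The 30 other genes of the epididymal epithelium had 54.3% in the reads and 48.8% in the transcripts.

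Reads across exon junctions were few. A read was counted as crossing where it had at least 5 nt on either side of the junction. By this count 4 of the 320 reads crossed one, or 1.25% (interval 0.342 to 3.17), while 8.999% of all placements of reads of the same lengths on the same transcripts would cross one, equal to 28.8 reads. The 4 reads are shown in lower case with capitals for the last base of one exon and the first base of the next; each was 1 read in coding sequence and had no mismatch in the deposited table.
Gpx3, nt 644 to 666, plus strand of chromosome 11: tttcctgaaGAactcctgccctc
Gpx3, nt 645 to 667, plus strand of chromosome 11: ttcctgaaGAactcctgccctcc
Gpx3, nt 649 to 691, plus strand of chromosome 11: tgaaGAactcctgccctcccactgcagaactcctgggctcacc
Clu, nt 323 to 347, plus strand of chromosome 14: ccaaGAactgtccactcaagggagt
The 3 Gpx3 reads crossed the same junction, after nt 653, and had 10, 9 and 5 nt on its shorter side, and the Clu read had 5 nt after its start. By this count 2 of the 51 junctions of the 7 transcripts were crossed, and Gpx5, Adam7, Crisp1, Lcn5 and Cd52 had 0 crossing reads. Reads with fewer than 5 nt beyond a junction were not counted as crossing. Among these were Gpx3 reads of nt 262 to 283, nt 432 to 466 and nt 650 to 671. Clu reads of nt 190 to 209, nt 473 to 519 and nt 475 to 520 were others. The number of crossing reads and of crossed junctions therefore depends on the limit of 5 nt.

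Outside the members, too, fewer reads crossed a junction than placements would. Crossing reads were 7 of 523 for spermatid genes (1.34%, with 5.13% of placements) and 4 of 133 for stroma genes (3.01%, with 15.6%). The 30 other genes of the epididymal epithelium had 0 of 107 (interval 0 to 3.39%, with 11.3% of placements). Reads within 1 exon have the same letters in the genome as in the spliced mRNA. The labels do not state whether a match to the genome was required first, and its part in this shortage was not tested.

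The member reads were long within the sequenced window. Their median was 35 nt (quartiles 27 and 41), against 32 nt (23 and 38) for the 19229 other mRNA-labelled reads that matched 1 gene. Reads of at least 30 nt made up 68.4% of the member reads (interval 63.0 to 73.5), against 56.5% (55.8 to 57.2) of those other reads. Reads of 18 to 24 nt, the lengths of miRNAs and their neighbours, made up 18.4% of the member reads and 29.98% of the others. The 30 other genes of the epididymal epithelium, described below, had the median of the members, 35 nt, with 75% at 30 nt or more. Spermatid transcripts also had a median of 35 nt, with 71.3% at 30 nt or more. Genes of stroma and smooth muscle had a median of 29 nt, with 48.1% at 30 nt or more.

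Among the members Gpx5 had the highest share of reads of 30 nt or more, 91.7% or 44 of 48 reads, with a median of 36 nt and none under 20 nt. Gpx3 had 74 such reads, 67.3% of its 110. Adam7 and Cd52 had medians of 37 and 36 nt, Crisp1 34.5 nt, and Gpx3 and Clu 34 nt each. Lcn5, with 10 reads, had a median of 26.5 nt and 40% at 30 nt or more. Beyond the stated 45 nt there were 21 member reads, 9 of Clu, 8 of Gpx3, 3 of Gpx5 and 1 of Crisp1, and the longest had 50 nt.

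**Figure D3:**
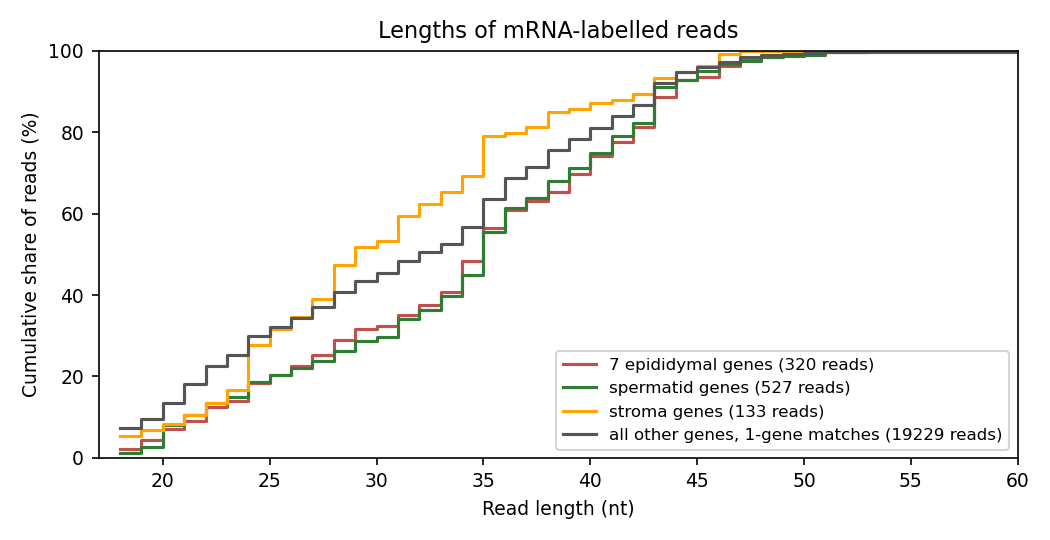
Cumulative share of reads (%) by read length (nt) for the 7 epididymal genes, for spermatid genes, for genes of stroma and smooth muscle, and for all other mRNA-labelled reads that match 1 gene in the mouse sperm library. The curves of the 7 genes and of the spermatid genes, with medians of 35 nt, lie to the right of that of the other reads, with a median of 32 nt, and that of the stroma genes, with a median of 29 nt, lies to its left at mid-height.

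The reads often began with A. This base was the first of 123 of the 320 member reads, 38.4% (interval 33.1 to 44.0), where A made up 27.8% of the transcripts. The share was 55.2% for Cd52, 46.7% for Adam7, 45.8% for Gpx5, 40% for Lcn5, 37.3% for Gpx3, 29.2% for Crisp1 and 27.5% for Clu. Crisp1 lay below the share of A in its own transcript, 31.3%, and the other 6 genes lay above theirs. The transcript share lay below the interval for Gpx3, Gpx5 and Cd52, and within it for Clu, Adam7, Crisp1 and Lcn5. These intervals count reads, and reads with a common start are not separate sites, as with the 10 Gpx3 reads from nt 155. The pooled value also holds the mix of genes. The share of reads starting with A was above the transcripts' share in the other lists too. It was 33.5% with 26.8% of the transcripts for spermatid genes and 41.4% with 25.3% for stroma genes. For the 30 other epididymal genes it was 43.0% with 25.6%.

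The rule took sense reads, so the antisense strand was counted apart. Sequences labelled mRNA that matched the antisense strand of the 7 genes had 0 reads, against 320 sense reads, which allows an antisense share of up to 0.9375% by the limit of 3 counts and of up to 1.15% by the exact interval. Among all mRNA-labelled reads that matched 1 gene, 1002 of 20551 (4.88%, interval 4.59 to 5.18) matched antisense alone. No read under another label met the rule for the 7 genes, and of the members the 110 reads with a RefSeq entry in their label named the same gene as the match. Because other genes matched, 10 reads were left out: 9 reads of Crisp1 were shared with Crisp3 or Gm11257, and 1 read was shared by Gpx3, Gpx5 and Gpx6.

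Relatives of the members were counted in the same way. Of 8 glutathione peroxidases, which reduce peroxides, 4 had reads: Gpx3 with 110, Gpx5 with 48, Gpx4, abundant in the sperm midpiece, with 8 and Gpx1 with 1. With reads that also matched other genes kept, Gpx4 had 19. Gpx2, Gpx6, Gpx7 and Gpx8 had 0. Of 4 cysteine-rich secretory proteins, Crisp1 had 24 reads and Crisp2, a testis protein of the acrosome and tail, had 10, while Crisp3 and Crisp4 had 0 reads of their own. Counts of these families hold reads that match 1 gene only, so a read in a stretch shared by relatives is not in them.

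The 7 members had 10 to 110 reads each, against 0 to 20 reads for each of 30 other genes of the epididymal epithelium. Members and lists were chosen with earlier results of these data known, so this contrast is a description. Together those 30 had 108 reads (interval 88.6 to 130), 21 of the 30 had at least 1, and their median was 1.5 reads per gene. The highest were Ptgds, a prostaglandin D synthase and lipocalin of the fluid, with 20 reads, Ces5a, a carboxylesterase, with 15, Serpina1f, a serine protease inhibitor, with 14, and Mfge8, a milk fat globule protein that coats sperm, with 12. Lcn9 and Spag11b had 7 each. Per length the members and the 30 other genes overlapped. Ptgds had 22.2 reads per kb, above Crisp1, Lcn5 and Adam7, and Serpina1f had 8.92, above Adam7 at 8.65. The others of the 30 stood below all 7 members per kb. The lipocalins Lcn8 and Lcn10, neighbours in kind of Lcn5, had 2 and 3 reads. Of the placed reads of all 30 genes 63.8% lay in coding sequence, which made up 52.9% of the length.

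Markers of other cells were read beside the members. The 16 genes of spermatids and sperm all had reads, 527 in all (interval 483 to 574) with a median of 18.5 per gene, led by the protamine Prm2 with 118, the outer dense fibre gene Odf1 with 102 and the mitochondrial capsule gene Smcp with 88. Per length, Gpx3 at 69.0 and Cd52 at 56.4 reads per kb stood below Prm2 at 190, Smcp at 102 and Odf1 at 92.3, and above Oaz3 at 49.2 and Prm1 at 38.4. Genes of stroma and smooth muscle had 133 reads (111 to 158), with all 9 detected, among them the collagens Col1a2 with 36, Col1a1 with 30 and Col3a1 with 24. Genes of blood and leukocytes had 7 reads (2.81 to 14.4), of Cd74, Lyz2 and Cd68, and Ptprc, the common leukocyte antigen, had 0. Counting reads that fit several genes, which the near-identical globin genes need, this list had 16. In that count Hba-a1 and Hba-a2 had 7 reads each, and Hbb-bs and Hbb-bt 2 each.

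Clear and basal cells of the epididymis had 1 read over 6 markers, of Krt14, and the 6 markers of testis somatic cells, among them Amh and Inha of Sertoli cells, had 0 reads. The library, labelled as purified sperm, held transcripts of spermatids together with transcripts of epithelium and stroma and a few reads of leukocyte and globin genes. The part of epithelial, stromal or blood cells collected with the sperm in the 320 member reads was not tested.

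**Figure D4:**
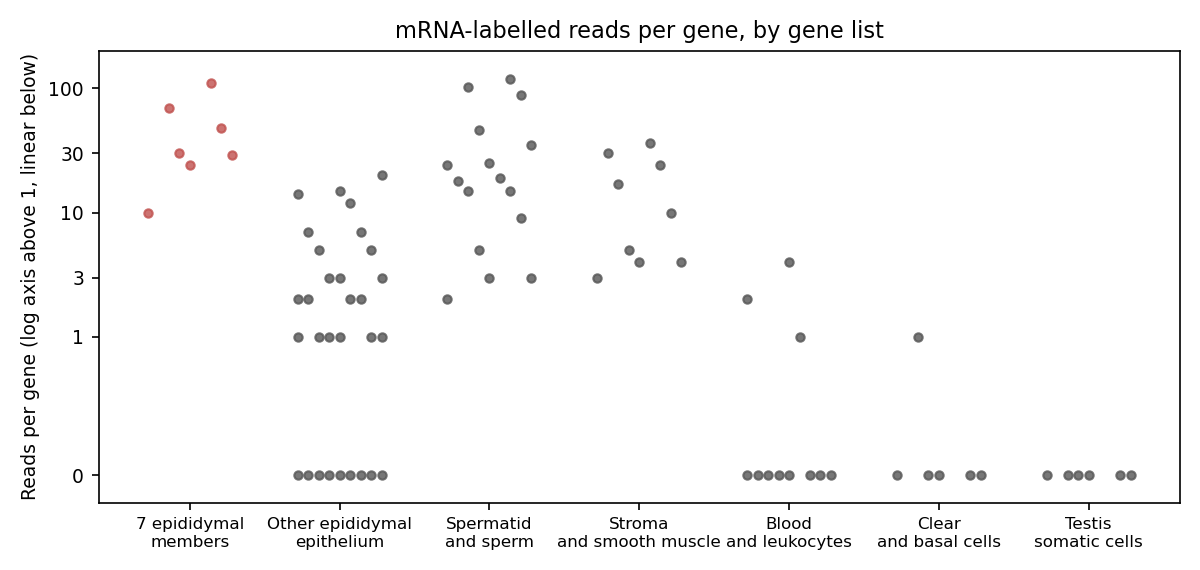
Reads per gene (log axis above 1) in the mouse sperm library for the 7 epididymal members and 6 lists of cell type markers, 1 point per gene. The members lie between 10 and 110 reads, the other epididymal genes between 0 and 20, spermatid genes between 2 and 118, and testis somatic genes at 0. Members and lists were chosen with earlier results of these data known, and reads are not divided by transcript length.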

How the data were processed

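Per the file headers, the authors deposited counts: for each distinct sequence its reads, strand, assigned database entry and mismatches, at most 2. The submitters' processing notes name Bowtie 0.12.7, mm9 and rn5, with no role given. Trimming of adapters, the database order and how 1 of several matches was picked are not stated in the labels. The mouse table holds 89179 sequences. Of these, 2535 have a date in place of identifier and count and were left out of the main values. Their months, read as counts, run from 7 to 12, so sequences of few reads are not among them. Identifiers run to 167458, of which 78279 are not listed here.

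Sequences on the minus strand were turned, and those whose label ends in mRNA were matched in full to GENCODE M21 transcripts (GRCm38) in Python 3.11.15 with numpy 2.4.6, scipy 1.17.1 and matplotlib 3.10.9. The matching was checked on simulated reads. No genome sequence was used, so matches outside annotated transcripts were not checked. Each gene's reference transcript is the annotated one with most of its reads, the longest at a tie. Lists name at most the 5 genes with most reads, except Lcn8, Lcn10, Prm1 and genes at 0, named after their values were seen, as the UTR and junction sequences were chosen. Members and lists were chosen with earlier results of these data known. Alternatives covered length, count, label, mismatches, shared matches and distinct sequences.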

Additional observations from a re-analysis of the deposited data

How the results depend on the processing

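Setting a length floor of 25 nt left 261 member reads, 0.653% of the mRNA-labelled reads, and a median of 36 nt. Counting distinct sequences gave 277, or 0.861% of the mRNA-labelled sequences. No member sequence had 10 reads, so a floor of 10 gave 0 and no share, length or position. Over all listed reads the share was 0.0463%, since the denominator grows and the 320 reads stay. The caput-typical share became 41.7% of the summed levels per kb, and the coding share 59.5% without Gpx3. Both were chosen after seeing the data, as was reading the month of a date as its count, which gave 327 member reads. Member reads were 306 at 20 nt or more, 304 without each gene's most abundant sequence, 334 with 1 mismatch and 330 with matches to other genes kept. Over these alternatives, the per-kb scale aside, the caput-typical share ran from 58.7% with matches to other genes kept to 66.9% with 1 mismatch. With 1 mismatch Crisp1 fell from 24 to 16 reads, because some of its reads then also fit another gene. No other member fell in that setting. Of 56 alternative read counts of single genes, 3 left the interval of the main count: Gpx3 with 85 at 25 nt or more and 88 by distinct sequences, and Clu with 50 at 25 nt or more. The sense share was 100% wherever it was recomputed, which excludes the settings with 1 mismatch and without the most abundant sequence. No paired analysis was possible because there was 1 library per species. Depth limits the single genes: a count of 10 reads, as for Lcn5, has an interval of 4.80 to 18.4.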

Other observations

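The rat library was searched for the same genes with the mouse transcripts, without a rat annotation. Of its mRNA-labelled reads, 25 reads of 24 sequences matched a transcript of 1 member gene exactly. Clu had 13 reads of 12 sequences, Gpx5 and Lcn5 4 reads each, and Gpx3 and Adam7 2 reads each. Crisp1 and Cd52 had 0. A read can match only where rat and mouse have the same letters over its whole length, so these counts are lower than those a rat transcript set would give by an amount not known here, and they give no order between genes or species.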
